A study of Mus musculus with 15 samples.

Results

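The cytosolic ribosomal proteins are the proteins of the ribosomes that translate nuclear genes, as opposed to those of mitochondrial ribosomes. Members were chosen by gene symbol, as Rpl and Rps followed by a number (with the closely named copies Rpl6l, Rpl7l1, Rpl22l1, Rps4l and Rps27l), Rplp0, Rplp1, Rplp2 and Rpsa. The deposited tables listed 83 such genes. The 82 that had a value in all 15 mice also all passed the filter on low values, out of 17713 genes tested, so that no member was lost to it. Of these, 46 belong to the large subunit, 31 to the small subunit and 5 are the copies (paralogs) named above. Rpl3l, a paralog of Rpl3 known from heart and skeletal muscle, was the member without a value in all mice and was not tested.

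RNA was sequenced from brain tissue that joined corpus callosum (white matter) with neocortex, taken from 15 mice, all wild type, 5 in each of 3 groups. Untreated control mice ate standard chow, and no vehicle is named for them. Both other groups received 0.25% (w/w) cuprizone for 3 weeks, a copper chelator that kills oligodendrocytes. The vehicle mice were also given vehicle, and the siponimod mice were given 3.125 mg/kg of siponimod, a drug that acts on the sphingosine 1-phosphate receptors S1pr1 and S1pr5. A difference between vehicle and control mice therefore cannot be told apart into cuprizone and vehicle.

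Each ribosome holds nearly every ribosomal protein in a single copy, so that cells make them in matched amounts. Their mRNAs are short, very abundant and mostly begin with a C followed by a run of pyrimidines, the TOP motif (terminal oligopyrimidine), through which the kinase mTOR and the protein Larp1 control their translation and stability. Several members have further known roles, such as the binding of Rpl5 and Rpl11 to Mdm2, the inhibitor of p53, when ribosome assembly fails.

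The bases around the annotated start of members that rose in siponimod mice are given here, since the TOP motif lies at the very start of an mRNA. Each line holds 30 bases, 10 before and 20 from the RefSeq transcription start on (GRCm38.p6), and capitals mark every C followed by at least 4 pyrimidines. At the end of the Rps27 line the window is too short to show the bases that follow the capitals. Rpl10 lies at chrX:74270806-74270835, plus strand. The windows of Rps12 and Rpsa lie at chr10:23787190-23787219, minus strand, and at chr9:120127756-120127785, plus strand. Rps19 has 3 listed starts, and the one shown, the only one of them whose window holds such a run, lies at chr7:24884903-24884932, plus strand. The first of the 2 starts of Rps27l lies at chr9:66946076-66946105, plus strand. Rps27, the main copy beside Rps27l, is shown for comparison and lies at chr3:90213629-90213658, minus strand.
Rpl10: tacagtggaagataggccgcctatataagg
Rps12: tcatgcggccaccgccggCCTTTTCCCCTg
Rpsa: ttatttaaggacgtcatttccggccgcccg
Rps19: agcggggtgtggagggCTCTCCCacgcggt
Rps27l: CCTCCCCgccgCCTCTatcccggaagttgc
Rps27: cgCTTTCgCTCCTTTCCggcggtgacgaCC
A run whose first C lay within 5 bases of a listed start was found in 29 of the 61 members that RefSeq's table holds (47.5%), against 5718 of 27025 genes (21.2%). Counted over starts, the shares were 42.5% of 73 against 18.3% of 32851. Among the windows printed, Rps27l and Rps27 had such a run at the start, and Rps12 and Rps19 had a run farther in. The starts are annotated ones, and those used in this tissue were not measured. A listed start without a run therefore does not show that the mRNA lacks the motif, and the shares count annotated starts only.

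Ribosomal protein mRNAs made up 3.85% ± 0.193 (SD, n = 5) of all TPM in control mice. TPM is transcript abundance corrected for length and scaled to a fixed total per library, and it keeps no sequencing depth, so that no counting error can be given. Mean control levels ran from 1.68 to 1480.2 TPM, with a median of 421 TPM. Highest were Rplp1 (1480.2 TPM ± 102), a protein of the stalk that recruits translation factors, Rps15 (1129.8 TPM ± 65.9) and Rpl13a (1069 TPM ± 91.2; SD, n = 5 each). Large-subunit members had a median of 419 TPM and small-subunit members one of 452 TPM.

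The 5 paralogs lay lower, between 1.68 and 199 TPM in control mice. Rpl6l was at 1.68 TPM ± 0.536, Rps4l at 30.8 TPM ± 5.04, Rpl7l1 at 36.5 TPM ± 5.50, Rps27l at 36.9 TPM ± 3.81 and Rpl22l1 at 199 TPM ± 16.9. Their main copies were well above, with Rps27 at 985 TPM ± 50.5 and Rps4x, the X-linked Rps4 gene, at 405 TPM ± 14.8, while Rpl22, at 219.7 TPM ± 8.61, stood close to Rpl22l1. Members varied little between mice of a group. The median coefficient of variation of a member was 6.13% in control, 4.90% in vehicle (mouse 1 left out) and 5.42% in siponimod mice. Pseudogenes named after a member exist for 61 of the 82, 299 in all (24 for Rps12, 14 for Rps19, 0 for Rps27l), and reads shared with them make these levels uncertain.

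Vehicle mouse 1 stood apart and is left out of the values and tests that follow, unless stated. In it Bc1, a short neuronal RNA, took 35.3% of all TPM, against 6.02 to 10.8% in the other mice, and the median of all tested genes lay 0.91 log2 below the control mean. Ribosomal protein genes went the other way. Their share of TPM was 6.26%, and their median lay 0.59 log2 above the control mean. Against the mean of the other 4 vehicle mice, members ranged from 0.428 (Rpl7l1) to 2.45 times (Rps21), with a median of 1.45, and 74 of 82 were above 1.

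Member transcripts are short, with a median length of 776 bases against 2458 over all tested genes, and 49 of the 82 fell in the shortest 10% (up to 870 bases). Within the members, the ratio in vehicle mouse 1 tended to be lower for longer transcripts (Pearson r = -0.38 and Spearman rho = -0.48 over 82 genes of the same libraries, given as a description). Rps14, Rps27a and Rpl38, with lengths of 667, 714 and 367.5 bases, were at 2.25, 2.38 and 2.28 times the other vehicle mice. Rpl4, of 1538 bases, was at 0.797 times and Rpl10, of 827 bases, at 0.816 times. The members of greatest length went the other way, with Rps15a (5130 bases) at 1.79 times and Rps20 (3706 bases) at 2.00 times. Each length is a median over a gene's annotated transcripts, which need not be those expressed here. Rps21, Rps27a and Rpl4 were chosen for naming after their values were seen. Other genes of the shortest 10% lay at -0.18 log2 in that mouse, 0.73 above its median of all genes, so that the members' median lay higher than that of other genes of the shortest 10%.

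**Figure D1:**
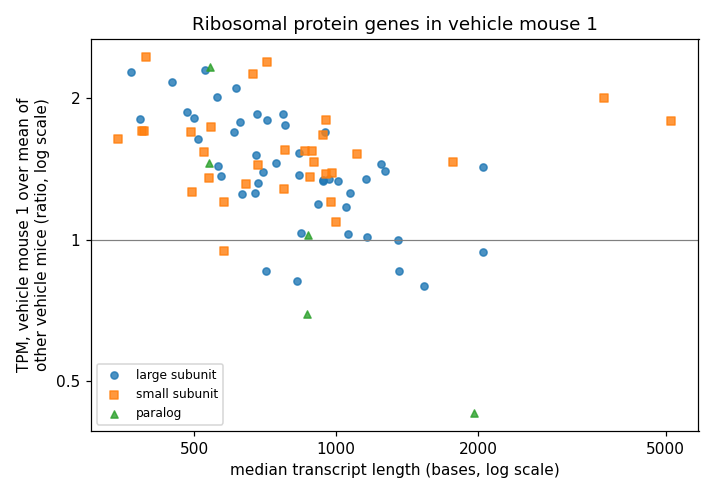
TPM of each ribosomal protein gene in vehicle mouse 1 divided by the mean of the other 4 vehicle mice (log axis), against its median transcript length in bases (log axis), with large-subunit, small-subunit and paralog members marked. Of the 82 genes, 74 lie above 1, and the paralog Rpl7l1 is lowest at 0.428.

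The members moved together from mouse to mouse, also within a group. The median of the 82 genes, as log2(TPM + 0.5) minus the mean of control mice, was 0.080, -0.10, 0.035, -0.025 and 0.00020 in control mice 1 to 5. In control mouse 1, 73 of 82 members were above the control mean, and in control mouse 2 only 2 were. Vehicle mice 2 to 5 had medians of 0.039, 0.0047, 0.062 and 0.14, and siponimod mice 1 to 5 had 0.18, 0.057, 0.058, 0.11 and 0.12. The groups overlapped, although all 5 siponimod medians lay above those of 4 of the 5 control mice. In control mouse 1, other genes of the shortest 10% lay 0.080 log2 above the median of all genes. The longest 10% of transcripts lay at -0.066 relative to it. In control mouse 2 these values were -0.020 and 0.028. The part of transcript length in the shifts of the members between control mice was not tested.

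**Figure D2:**
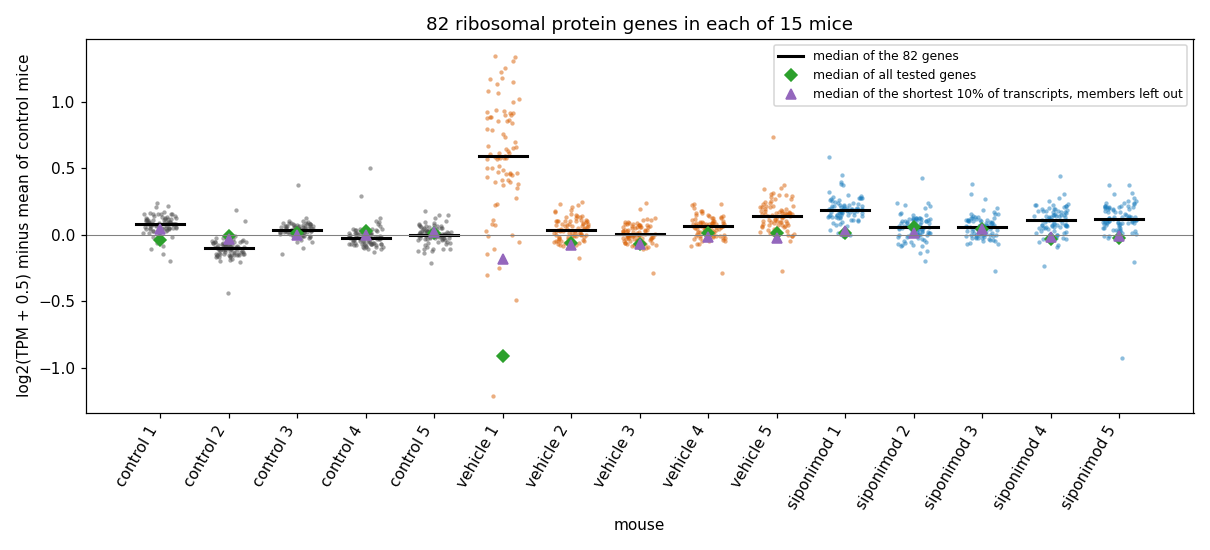
Each point is 1 of 82 ribosomal protein genes in 1 mouse, as log2(TPM + 0.5) minus the mean of the 5 control mice, with black bars for the members' median, green diamonds for the median of all 17713 tested genes and purple triangles for other genes of the shortest 10% of transcripts. Vehicle mouse 1 has the members at a median of 0.59 and all genes at -0.91, and in the other 14 mice the members' median lies between -0.10 and 0.18.

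By group, the share of TPM in ribosomal protein mRNAs was 3.58 to 4.09% in control mice, 3.87 to 4.24% in vehicle mice (mean 4.02% ± 0.156, n = 4) and 4.00 to 4.39% in siponimod mice (mean 4.16% ± 0.162, n = 5). Each group overlapped the next, and the steps between the group means were about as large as the SD within a group. Bc1, which is part of the same total, took 6.02 to 9.16% in control, 8.59 to 10.8% in vehicle and 6.40 to 10.4% in siponimod mice.

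Vehicle mice were compared with control mice to see the members after cuprizone without the drug. None of the 82 passed the test (limma across all 17713 genes, Benjamini-Hochberg adjusted p under 0.05), whereas 3.68% of all genes did, 1.6% as higher and 2.08% as lower. At an unadjusted p under 0.05, 10 members passed, all higher in vehicle mice, against a background of 5.68% of genes higher. The median difference of the members was 0.062 log2 (4.37% higher), beside -0.030 over all genes. Of the 82, 70 had a difference above 0 (85.4%, against 40.4% of all genes).

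The largest differences were small. Rps27l was at 46.8 TPM ± 9.83 (n = 4) against 36.9 TPM ± 3.81 (n = 5), a log2 difference of 0.32 (95% interval 0.10 to 0.55, limma adjusted p = 0.113), and vehicle mouse 5, at 61.3 TPM, was well above the 39.5 to 43.3 TPM of the other 3. Rps15a, Rps19, Rps12 and Rps14 followed, with log2 differences of 0.24, 0.21, 0.18 and 0.17 and limma adjusted p of 0.152, 0.0881, 0.108 and 0.333. Rpl10 had the smallest adjusted p, at 0.0562, with a difference of 0.14. The groups did not overlap for Rpl10, Rps15a and Rps20, all higher in vehicle mice, and for 0 members lower (background 3.01% and 4.6% of genes). At the other end lay Rpl6l (-0.096), Rpl41 (-0.050), the smallest ribosomal protein, Rpl29 (-0.036), Rpl37 (-0.026) and Rpl36a (-0.024).

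These counts depend on the scale. With Bc1 taken out of the total, the median difference of the members was 0.10, and Rpl10 (0.18, limma adjusted p = 0.0181) and Rpl22 (0.17, adjusted p = 0.0381) passed. The split over all genes then went from 284 higher and 368 lower to 382 higher and 281 lower. After subtraction of the median deviation of genes of like length in each library, 4 members passed as higher, among them Rpl10, Rps12 and Rps19. Of all genes, 386 then passed as higher and 303 as lower. In the authors' deposited table of this comparison, 4 of the 83 listed members were higher at an adjusted p under 0.05 and 0 lower (background 3.86% of genes higher, 2.8% lower). Among them were Rpl10 at 0.19, Rps12 at 0.19 and Rps4x at 0.14 log2, with the authors' adjusted p of 0.000278, 0.015 and 0.0142. That table also holds vehicle mouse 1, and whether the authors' test used it is not stated. The limma fit of all 15 mice called 0 members here.

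Against the same control mice, siponimod mice had 6 ribosomal protein genes higher and 0 lower, which is 7.32% of the members against 1.28% of all genes called higher (1.5% lower and 2.77% in either direction). At an unadjusted p under 0.05 it was 40 of 82, all higher (background 7.6% of genes). The median difference of the members was 0.11 log2 (7.64% higher), beside 0.0083 over all genes, and 78 of 82 lay above 0 (95.1%, against 53.2% of all genes). In the small subunit, 4 of 31 members rose, with a median of 0.12 and all 31 above 0, and in the large subunit 1 of 46, with a median of 0.097 and 45 above 0. Of the 5 paralogs Rps27l rose, and the other 4 lay between -0.23 (Rpl6l) and 0.074 (Rpl22l1).

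**Figure D3:**
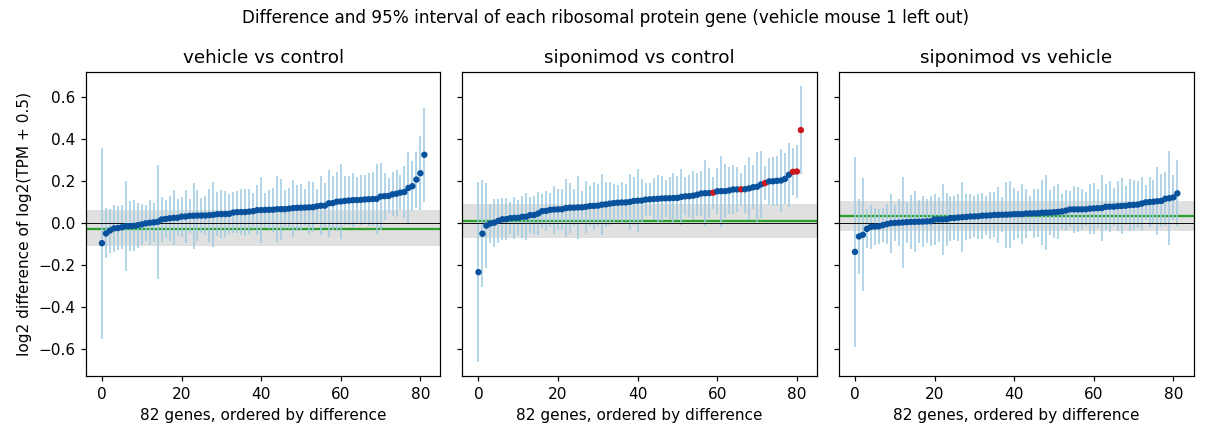
Log2 difference (points) and 95% limma interval (lines) of each of the 82 genes in the 3 comparisons, ordered by difference within each, with the median of all tested genes as a green line and the span from their lower to their upper quartile as a grey band. Red points passed the test, which 6 genes did between siponimod and control mice and 0 in the other comparisons.

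Rpl10, a large-subunit protein added late in assembly, was at 444, 453, 485, 477 and 464 TPM in control mice 1 to 5 and at 532, 541, 502, 537 and 537 TPM in siponimod mice 1 to 5. Every siponimod mouse was above every control mouse. The log2 difference was 0.19 ± 0.037 (SE; 95% interval 0.11 to 0.27, limma adjusted p = 0.00878), or 1.14-fold. Vehicle mice 2 to 5, at 536, 497, 498 and 523 TPM, were also all above the controls.

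Rps12, a protein of the head of the small subunit, was at 490.1, 423, 452, 465 and 445 TPM in control mice and at 589, 538, 502, 529.5 and 536 TPM in siponimod mice. The groups did not overlap, although siponimod mouse 3 came close to control mouse 1. The log2 difference was 0.24 ± 0.053 (SE; 95% interval 0.13 to 0.36, limma adjusted p = 0.018). In vehicle mice 2 to 5 the levels were 514, 478, 502 and 564 TPM, across the gap between both groups.

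Rpsa, a small-subunit protein also known as a laminin receptor precursor, was at 428, 406, 423, 425 and 423 TPM in control mice and at 465, 456, 461, 489 and 482 TPM in siponimod mice. The control mice differed little from each other (SD 8.69 TPM), and no siponimod mouse came down to them. The log2 difference was 0.16 ± 0.037 (SE; 95% interval 0.082 to 0.24, limma adjusted p = 0.0258). Vehicle mice 2 and 3, at 415 and 429 TPM, were with the controls or next to them, and vehicle mice 4 and 5, at 456 and 459.7 TPM, were with the siponimod mice.

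Rps19, the gene most often mutated in human Diamond-Blackfan anaemia, was at 349.5, 300.3, 361, 313 and 336 TPM in control mice and at 402, 360.2, 381, 409 and 413 TPM in siponimod mice. The groups touched, with siponimod mouse 2 at the level of control mouse 3. The log2 difference was 0.25 ± 0.059 (SE; 95% interval 0.12 to 0.37, limma adjusted p = 0.0364). Vehicle mice 2 to 5 had 376, 352, 381 and 423 TPM.

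Rps27l, a paralog of Rps27 known as a p53 target, had the largest difference of all members. It was at 33.1, 41.9, 33.2, 36.9 and 39.3 TPM in control mice and at 55.2, 49.6, 48.0, 50.1 and 47.8 TPM in siponimod mice, with no overlap. The log2 difference was 0.44 ± 0.0995 (SE; 95% interval 0.23 to 0.65, limma adjusted p = 0.0227), or 1.36-fold. Its main copy Rps27 had 985 TPM ± 50.5 in control and 1086 TPM ± 59.4 in siponimod mice (n = 5 each), a log2 difference of 0.14 (95% interval 0.035 to 0.25) that did not pass (limma adjusted p = 0.19).

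**Figure D4:**
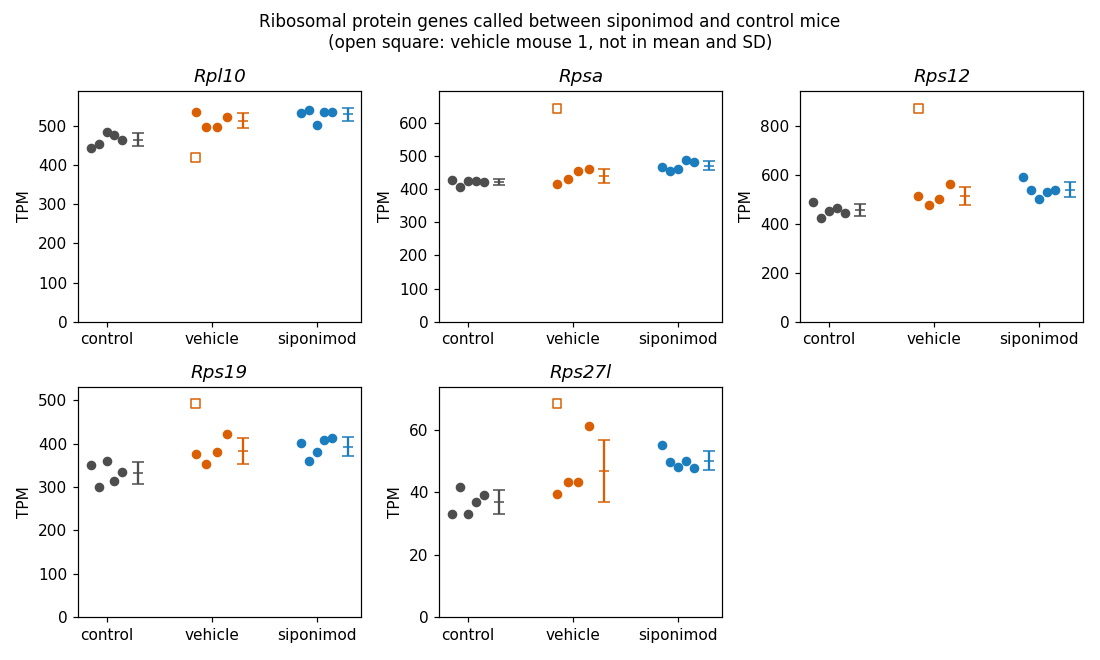
TPM in each mouse of 5 genes that rose between control and siponimod mice, with mean and SD beside the points and vehicle mouse 1 as an open square outside the mean and SD. Every siponimod mouse lies above every control mouse for all of them except Rps19, which overlaps by 1 mouse.

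The coding sequences of Rps27 (gene at chr3:90212522-90213651, minus strand) and Rps27l (gene at chr9:66946086-66949516, plus strand; both GENCODE M21, GRCm38) are printed to show how far apart the abundant and the rare copy are as sequences that reads were assigned to. Capitals mark the 61 of 255 bases that differ.
Rps27: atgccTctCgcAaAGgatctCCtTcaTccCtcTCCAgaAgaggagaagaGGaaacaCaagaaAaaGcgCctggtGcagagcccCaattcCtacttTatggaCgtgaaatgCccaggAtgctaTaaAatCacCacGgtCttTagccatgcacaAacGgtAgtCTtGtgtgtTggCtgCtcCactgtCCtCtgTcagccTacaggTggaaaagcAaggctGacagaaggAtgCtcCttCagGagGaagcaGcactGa
Rps27l: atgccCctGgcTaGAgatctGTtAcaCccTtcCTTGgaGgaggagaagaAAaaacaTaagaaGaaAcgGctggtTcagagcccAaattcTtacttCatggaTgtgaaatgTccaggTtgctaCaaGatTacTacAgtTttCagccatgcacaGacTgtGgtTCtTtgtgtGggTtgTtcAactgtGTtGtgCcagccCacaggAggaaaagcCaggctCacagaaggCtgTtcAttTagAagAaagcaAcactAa
They share 76.1% of their bases, and the longest stretch without a difference is 11 bases.

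Members just short of the threshold between siponimod and control mice included Rps2, in the small subunit near the mRNA entry, at 508 TPM ± 30.8 and 587 TPM ± 29.4 (log2 difference 0.21, limma adjusted p = 0.0666), and Rpl13a (0.23, adjusted p = 0.125), which in human cells can leave the ribosome to repress inflammatory mRNAs. The groups did not overlap for 9 members, all higher (background 2.74% of genes higher, 2.09% lower), among them Rpl10, Rps12, Rpsa and Rps27l and also Rps18, Rpl15 and Rpl18, which are named here after their values were seen. The stalk proteins Rplp0, Rplp1 and Rplp2 had differences of 0.15, 0.16 and 0.11 (limma adjusted p = 0.175, 0.16 and 0.353). Rps6, the target of the S6 kinases below mTOR, was at 0.11 (adjusted p = 0.354). Rpl5 and Rpl11, the Mdm2 binders, were at 0.081 (95% interval -0.032 to 0.19) and 0.073 (-0.046 to 0.19).

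Some abundant members had differences near 0. Rpl38, needed in mice for translation of Hox mRNAs, was at 779 TPM ± 51.8 in control and 779.5 TPM ± 51.5 in siponimod mice (95% interval of the log2 difference -0.11 to 0.12). Rpl28 was at 299 TPM in both (-0.094 to 0.089). Rpl37 was at 0.010 (-0.096 to 0.12) and Rpl41 at 0.030 (-0.083 to 0.14). Among the paralogs, Rps4l was at -0.051 (-0.31 to 0.20) and Rpl7l1 at -0.013 (-0.22 to 0.19), while Rpl6l, the lowest member, had an interval from -0.66 to 0.19.

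Of the 6 calls, that of Rpl10 stood when any 1 of the 14 mice was left out (limma adjusted p 0.00585 to 0.0302). Rps12 missed the threshold without control mouse 2, control mouse 5 or siponimod mouse 1 (highest adjusted p 0.0542), and Rps27l without control mice 1, 3 or 4 or siponimod mice 1 or 2 (highest 0.069). Rpsa was lost without control mice 2, 4 or 5 or siponimod mice 1, 4 or 5 (highest 0.0724), and Rps19 in the same fits and without siponimod mouse 3 (highest 0.097). The count of 6 was 1 without siponimod mouse 1, 2 without control mouse 2, 4 or 5, and 3 without siponimod mouse 4 or 5. It was 10 without vehicle mouse 5, which enters only the shared spread. Genes of all called higher went from 226 in the reported fit to 141 without siponimod mouse 1 and 327 without vehicle mouse 5. They were 156, 171 and 156 without control mouse 2, 4 or 5, and 170 and 198 without siponimod mouse 4 or 5. With vehicle mouse 1 in the fit the differences stayed as they were, the shared spread grew and 0 of the 6 passed (Rpl10 adjusted p = 0.702).

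In the authors' deposited table for siponimod against control mice, 5 of 82 listed members were higher at an adjusted p under 0.05 and 0 lower (background 2.55% of genes higher, 2.6% lower). They were Rpl10 (0.19 log2, adjusted p = 6.98e-05), Rps27l (0.37, 0.0121), Rpsa (0.17, 0.0124), Rps12 (0.17, 0.022) and Rps2 (0.19, 0.0368). The median over the members in the authors' deposited table was 0.054.

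The comparison of siponimod with vehicle mice asks what the drug added in cuprizone-fed mice. None of the 82 members passed (limma), and 0.0% of all genes did. At an unadjusted p under 0.05 it was 2 members, Rpsa (0.098 log2, limma adjusted p = 0.548) and Rpl36a (0.12, adjusted p = 0.56), both higher in siponimod mice, against 7.16% of all genes called higher at that p. The members' median was 0.042 log2, close to the 0.035 of all genes, with 72 of 82 above 0 (87.8%, against 63.2% of all genes). No member had groups that did not overlap (background 2.37% of genes higher, 0.412% lower).

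For the genes described above that rose against control mice, the differences between siponimod and vehicle mice were 0.045 (Rpl10, 95% interval -0.039 to 0.13), 0.068 (Rps12, -0.051 to 0.19), 0.098 (Rpsa, 0.015 to 0.18), 0.039 (Rps19, -0.095 to 0.17) and 0.12 (Rps27l, -0.11 to 0.34). Both comparisons with control mice share those mice, so that their values side by side are not independent. Calls against control mice in 1 treated group and not in the other do not show that the treated groups differ. The direction of the members' median hung on vehicle mouse 1, since it was -0.070 with that mouse in the group. It was 0.012 with Bc1 taken out and -0.0093 after the length correction. In the authors' deposited table of this comparison, 0 of 81 listed members passed in either direction (background 2.05% of genes), and the median was -0.018, with 24 above 0. This table, too, holds vehicle mouse 1, unlike the reported limma fit.

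Ribosomal proteins whose symbols fall outside the rule were looked at as well. Rack1, a scaffold protein bound to the small subunit, rose from 176 TPM ± 10.1 in control to 204 TPM ± 8.70 in siponimod mice (log2 difference 0.21, limma adjusted p = 0.042). It was at 192 TPM ± 14.96 in vehicle mice (n = 4). Fau, which encodes a ubiquitin-like protein fused to a ribosomal protein, was at 0.10 log2 between siponimod and control mice (adjusted p = 0.513). Rpl36al, a copy of Rpl36a, was at -0.11 between vehicle and control, 0.024 between siponimod and control and 0.13 between siponimod and vehicle mice (limma adjusted p = 0.201, 0.859 and 0.507).

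Other genes of translation were tested as lists. Of all genes, 3.68% passed for vehicle over control, 2.77% for siponimod over control and 0.0% for siponimod over vehicle mice. At these shares, 0 or few calls in a short list do not set it apart from other genes. Of 33 initiation factors, 0 passed in any comparison, with medians of -0.0043, 0.027 and 0.036 log2 for vehicle over control, siponimod over control and siponimod over vehicle mice (all genes -0.030, 0.0083 and 0.035). At an unadjusted p under 0.05, 1, 4 and 3 of them were higher and 1, 0 and 0 lower. Of 10 elongation and termination factors 0 passed (1, 2 and 0 higher and 1, 0 and 0 lower at an unadjusted p under 0.05). Eef1a1, which carries aminoacyl-tRNAs to the ribosome and has a TOP mRNA itself, was at 0.16 between siponimod and control mice (limma adjusted p = 0.051). Of 7 other TOP mRNAs, Pabpc1, the poly(A)-binding protein, rose in both comparisons with control mice, by 0.22 (adjusted p = 0.0182) and 0.20 (adjusted p = 0.0256).

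Of 35 ribosome biogenesis genes, which build ribosomes in the nucleolus, 0 passed in any comparison, with medians of -0.016, 0.0065 and 0.028, and 1, 1 and 3 were higher and 2, 2 and 1 lower at an unadjusted p under 0.05. The 78 mitochondrial ribosomal proteins had medians of -0.066, 0.0053 and 0.082. Mrpl14 fell in vehicle against control mice (-0.24, limma adjusted p = 0.0389), and no other gene of that list passed in any comparison. At an unadjusted p under 0.05, 16 of the 78 were lower and 1 higher in vehicle against control mice, where 10% of all genes tested were lower (1771 of 17713). Between siponimod and control mice 7 were higher and 4 lower, against 7.6% and 5.7% of all genes. Between siponimod and vehicle mice, which share the vehicle mice with that comparison, 15 were higher and 0 lower (all genes 7.16% and 1.32%), and 71 of the 78 lay above 0, against 63.2% of all genes. Of 20 regulators of translation, 2 rose in both comparisons with control mice. Eif4ebp1, a repressor of cap-dependent translation that mTOR inactivates, rose by 1.31 and 1.41 log2 (from 4.75 TPM ± 0.735 to 12.6 ± 2.37 in vehicle and 13.5 ± 2.77 in siponimod mice, adjusted p = 4.92e-05 and 1.48e-05). Ddit3, a transcription factor of the integrated stress response, rose by 0.60 and 0.69 (adjusted p = 9.77e-05 and 1.98e-05).

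**Figure D5:**
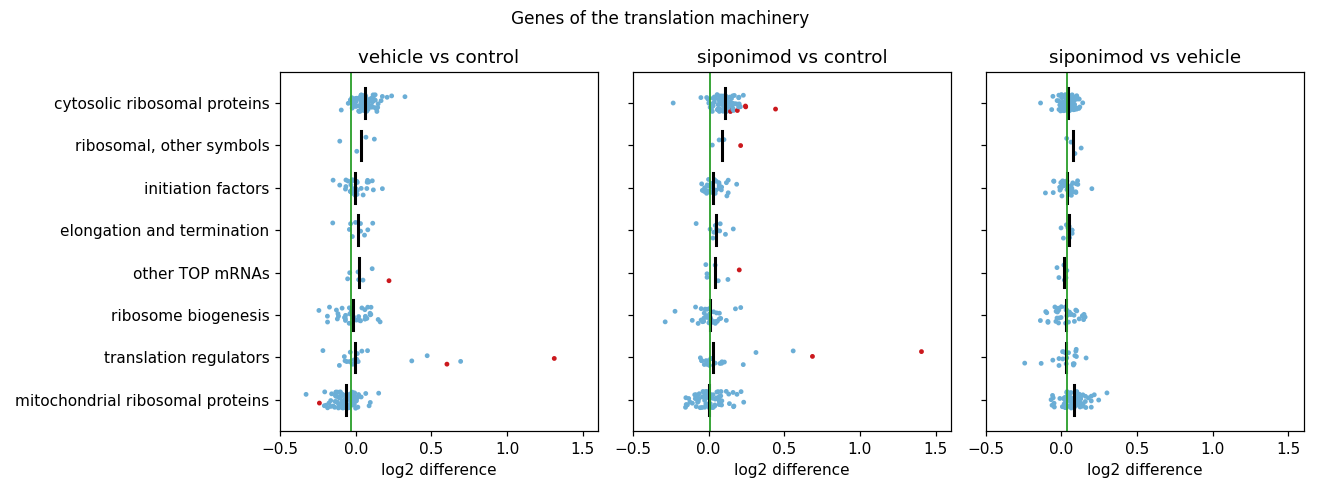
Log2 difference of each gene (points; red where it passed the test) and median (black bars) of the ribosomal proteins and 7 other lists of translation genes in the 3 comparisons, with the median of all tested genes as a green line. The ribosomal proteins have medians of 0.062, 0.11 and 0.042, and the mitochondrial ribosomal proteins -0.066, 0.0053 and 0.082.

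The tissue's cell types changed at the same time. All marker lists were measured in full, and every marker passed the filter on low values. The summed TPM of 4 markers of mature oligodendrocytes was 1351 to 2111 in control, 225 to 492 in vehicle and 266 to 521 in siponimod mice, and all 4 fell in both comparisons with control mice (limma). Those of 5 microglial markers were 135 to 158, 184 to 352 and 169 to 278, with 3 and 1 of 5 risen, and those of 4 astrocyte markers 961 to 1037, 1072 to 1291 and 1100.1 to 1338, with 2 of 4 risen in both. Neuronal markers summed to 3241 to 3326, 2902 to 3233 and 3093 to 3413, with 0 of 4 passing. Erythrocyte markers (15.8 to 143, 166 to 473 and 102 to 417) had 0 of 5 passing, and choroid plexus markers (34.7 to 2333, 27.1 to 416 and 16.5 to 922) 0 of 3. At an unadjusted limma p under 0.05, however, 4 of the 5 erythrocyte markers were higher in each comparison with control mice. The background was 5.68% of genes for vehicle and 7.6% for siponimod mice. Their median log2 differences were 1.54 in vehicle and 1.21 in siponimod mice. The part of these changes in the ribosomal protein differences was not tested, and in bulk tissue fewer cells of a type and less RNA per cell cannot be told apart.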

How the data were processed

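Total RNA of 15 mice was made into stranded, ribosome-depleted libraries per the labels' protocols, although the files' header lines speak of a 3 prime mRNA analysis, and the conflict is unresolved. Per the submitters' processing notes, the tools were Salmon 1.4.0, STAR 2.6.1d, Trim Galore 0.6.6 and bcl2fastq, and the build was mm10. The order of the steps and the use of strand are not stated. The authors deposited 3 tables, 1 per pair of groups, with TPM per mouse, a mean signal over libraries, the authors' log2 fold change, its standard error (log2 scale), a test statistic (a score) and raw and adjusted p-values, per the file headers. How the authors tested is not stated. Library depth is unknown, since TPM keep none of it.

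From these, log2(TPM + 0.5) of genes above 0.5 TPM in at least 5 mice was fitted with limma 3.58.1 in R 4.3.3. The 3 groups stood in 1 model over 14 mice, without vehicle mouse 1, with 11 residual degrees of freedom, trended empirical Bayes moderation and Benjamini-Hochberg adjustment over 17713 genes at 0.05. Intervals are 95% limma intervals, unadjusted for the number of genes. Fold changes are on the log2(value + pseudocount) scale, which makes those of low genes smaller. Because the files hold TPM, the design's branch for counts was not used. Groups come from the labels, which name each mouse separately. Lengths and coordinates came from GENCODE M21 (GRCm38). Other computations and figures used Python 3.11.15 with matplotlib 3.10.9, scipy 1.17.1, numpy 2.4.6 and pandas 2.3.3.

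The members, lists and tests were chosen with earlier results of these data known. Named genes are the called members, the 5 largest rises and falls per comparison, the 3 highest and 3 lowest by control TPM, and a fixed set of paralog pairs and well-known members; other names are stated as chosen after their values were seen. Some genes that this rule takes are not reported here. Alternatives changed the mice, the scaling, a length correction, the pseudocount, the filter, a replicate block and the groups in the fit. Simulated data with known changes were used to test the fit. It recovered 87.9% of 100 genes changed by 1 log2 in siponimod mice. Of 100 genes changed by 0.2 log2 it recovered 12% against control and 10% against vehicle mice. These genes were drawn from all that passed the filter, so recovery for the members alone was not measured. Differences of that size can be missed. False calls among unchanged genes were 1 between vehicle and control, 3 between siponimod and control and 7 between siponimod and vehicle mice, with 17752 genes tested.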

Additional observations from a re-analysis of the deposited data

Results flagged for a closer look

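Among 124 groups of values tested for a sample far from the others, 7 held one, and chance gives about 1 in 20. The median of the members in vehicle mouse 1 (0.59 log2 above the control mean) lay far from the 0.0047 to 0.14 of the other vehicle mice, with a gap of 0.762 of the group's range.

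The other 6 are single genes. Siponimod mouse 3 was lowest for Rpl10 (502 TPM against 532 to 541 TPM, gap 0.78 of the range) and Rpl7 (339 against 366 to 372 TPM, 0.814) and highest for Rpl23a (894 against 822 to 834 TPM, 0.83). Rps29 was lowest in vehicle mouse 3 (955 against 1032 to 1045 TPM, 0.855). In control mice, Rps4l was highest in mouse 3 (39.7 against 27.9 to 29.03 TPM, 0.884), and Rpsa was lowest in mouse 2 (406 against 423 to 428 TPM, 0.759). The Rpl10 and Rpsa groups enter calls of the report. Without siponimod mouse 3 Rpl10 still passed, and without control mouse 2 Rpsa did not.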

How the results depend on the processing

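With all 15 mice, the members' median was 0.16 log2 for vehicle against control and -0.070 for siponimod against vehicle mice, 0 members passed against control mice, and 220 (75 higher, 145 lower) and 132 genes of all passed, against 652 and 491 without vehicle mouse 1. Members called between vehicle and control mice, 0 in the reported fit, were 2 with Bc1 taken out and 4 with the length correction. They were 1 with only the 2 groups compared (Rps15a) and 1 with the replicate block. Of all genes, 382, 386, 242 and 258 were called higher in these fits, against 284 in the reported fit. Members called between siponimod and control mice, 6 in the reported fit, were 10 with the length correction and 3 with libraries scaled to a common median (Rps19 and Rpsa among those lost). Without vehicle mouse 1 and siponimod mouse 1 it was 1 member. Of all genes, 245, 250 and 141 were called higher in these fits, against 226 in the reported fit. The length correction and the scaling to a common median turned the split of all genes between vehicle and control mice to 386 higher and 303 lower, and 370 and 312. Restricting the test to genes at or above the median TPM gave 401, 266 and 1 genes of all, with fewer genes tested. For the other changed counts the cause was not tested.

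Over all genes, deviations of same-numbered mice correlated at -0.059 to 0.12 in 13 pairs, 1 of them above 0.1. Over the members alone it was -0.33 to 0.34, with 5 above 0.1. By groups, the members' values were -0.33 to 0.089 (vehicle and control), -0.30 to 0.25 (siponimod and control) and 0.090 to 0.34 (siponimod and vehicle). Differently numbered mice were not set beside these, so the values cannot decide whether the numbers pair the mice. With the replicate block, 1 member (Rps12) passed between vehicle and control mice, 9 between siponimod and control and 0 between siponimod and vehicle mice, and 593, 435 and 0 of all genes. Leaving out 1 mouse at a time gave 0 to 1, 1 to 10 and 0 to 0 members called, 403 to 768, 350 to 608 and 0 to 2 genes of all, and medians of 0.032 to 0.083, 0.083 to 0.13 and 0.019 to 0.067 in the 3 comparisons. Other pseudocounts and no filter left the counts of members called as reported. Depth is unknown, so precision rests on the spread between mice alone.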
